A study of Equus caballus with 4 samples.

Results

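Equine sarcoids are locally invasive fibroblastic tumours of horse skin that are associated with bovine papillomavirus infection. Here 5 horse genes whose products act against viruses inside infected cells, OAS1, EIF2AK2, SAMD9, MX1 and IFI27, were followed in sarcoids and in skin of the same animals. They were found on the array as all 13 non-control probes whose RefSeq transcript belongs to 1 of the 5 genes, among 43603 probes in all. Probes of the same genes may also stand among the 31502 that carry an Ensembl transcript ID, which were not named here. All 5 are among the 19607 targets (a gene, or a transcript without a gene name) that passed the filter on dim probes, of which 791 carry a gene symbol. Each of 4 horses gave 1 two-colour array, with RNA of the sarcoid labelled with Cy3 and RNA of skin away from the tumour labelled with Cy5. The pieces were kept in RNAlater and frozen, and the labels call the horses biological replicates but give no age, breed, sex or virus status. Descriptions of 3 samples mention untreated embryonic stem cells, against the title, source and tissue of the same samples, and grouping rests on the latter.

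Cells that detect foreign nucleic acid secrete interferons, which bind receptors on the same and neighbouring cells and switch on a large set of genes through the STAT and IRF transcription factors. Among the products, OAS1 and EIF2AK2 are enzymes that are switched on by double-stranded RNA, one leading to RNA decay and the other to a halt in protein synthesis. SAMD9 and MX1 are restriction factors that act against viruses inside the cell, and IFI27 is a small membrane protein that is strongly induced by interferon alpha. Keratinocytes, fibroblasts, endothelial cells and leukocytes of the skin can all respond to interferon in this way.

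The share of probe spots well above background ran from 67.2% to 80.7% over the 8 channels. The fibroblast marker LUM had a log2 ratio of sarcoid over skin of 4.24 ± 1.16 (SD, n = 4) and the basal keratinocyte marker KRT15 one of -5.12 ± 0.11, in the directions of the tissue labels. All 4 arrays lay on 1 slide with the same dye orientation, and a gene's dye effect cannot be told apart from its difference between tissues. In bulk tissue, a change in the share of the cells that express a gene and a change in RNA per cell cannot be told apart either. Precision is limited by having 4 arrays, and an exact sign-flip test over 4 horses cannot give a two-sided p under 0.125. The tests below are therefore limma's, which borrow the spread from all targets, with Benjamini-Hochberg adjustment over all of them.

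Of the 5 genes, 4 were higher in the sarcoid than in the skin: IFI27 by 2.62-fold, SAMD9 by 2.32-fold, OAS1 by 2.02-fold and EIF2AK2 by 1.61-fold, each above 0 in all 4 horses. MX1 was split between the animals, with a higher level in 3 sarcoids and a 3.93-fold lower level in the sarcoid of horse 3. Over all targets, 5.84% were called higher in the sarcoid at a limma adjusted p under 0.05 and 9.9% were called lower. The 5 genes were chosen with earlier results of these data known, so their count of 4 describes them and is not a test. All 13 probes were well above background in both channels on all 4 arrays, no spot was saturated, and 0 spots were left out as outliers. Of the 52 probe ratios, 50 were above 0, and the 2 below 0 were both of MX1 in horse 3.

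**Figure D1:**
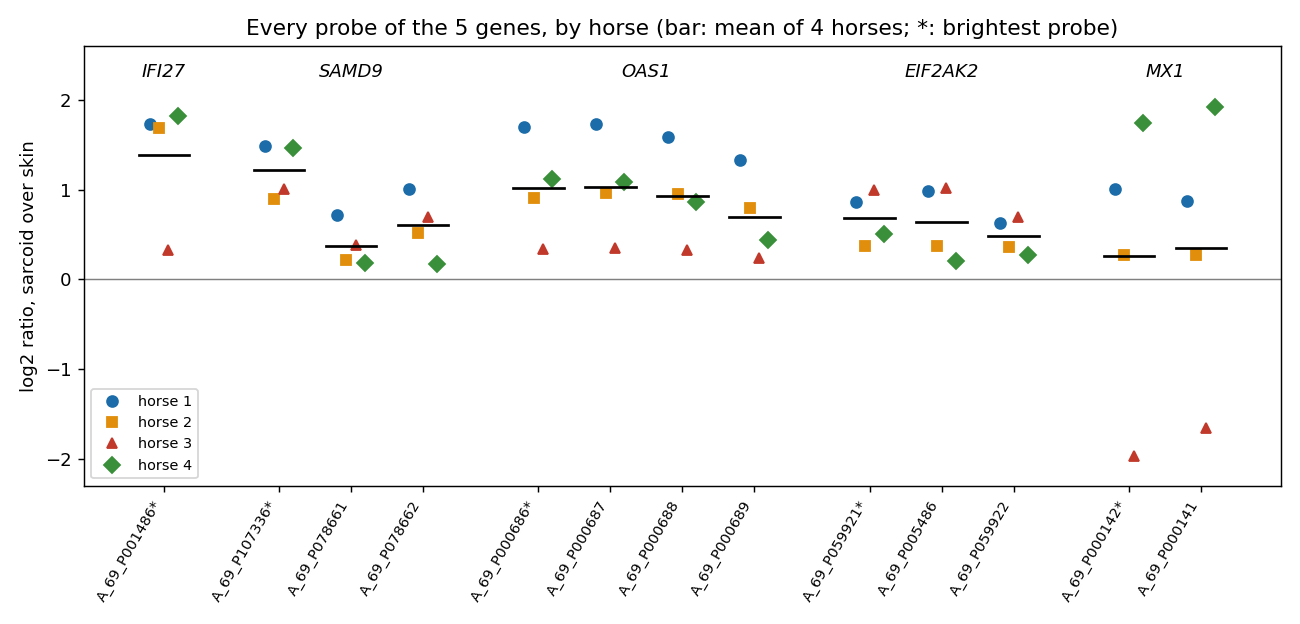
Log2 ratio of sarcoid over skin (vertical axis) for each of the 13 probes of the 5 genes (horizontal axis, Agilent probe names), with 1 point per horse and a bar at the mean of 4 horses; an asterisk marks the brightest probe of a gene. The only points below 0 are those of horse 3 on both MX1 probes, at -1.97 and -1.66.

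OAS1 encodes an oligoadenylate synthetase, which on binding double-stranded RNA makes short adenylate chains that act as a signal inside the cell. It is measured by 4 probes of 1 RefSeq transcript, NM_001082489. On the brightest, A_69_P000686, the log2 ratio of sarcoid over skin was 1.70, 0.90, 0.33 and 1.12 in horses 1 to 4. The normalized log2 level was 12.55, 12.13, 11.98 and 12.43 in the sarcoids against 10.85, 11.22, 11.64 and 11.31 in the skin. Every sarcoid was thus above every skin sample, and horse 3 had both the lowest sarcoid and the highest skin level. OAS1 rose by a mean log2 ratio of 1.01 ± 0.56 (SD, n = 4; limma 95% interval 0.42 to 1.60, adjusted p = 0.0435). The other probes gave the same order of horses at the extremes: horse 1 was highest and horse 3 lowest on all 4, and within 1 horse the 4 probes differed by 0.10 to 0.69.

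In a fit over all 33864 probes that passed the filter, 6.97% were called higher and 3 of the 4 OAS1 probes were among them. The one that was not, A_69_P000689, had the lowest mean log2 ratio of the 4, at 0.70 ± 0.48 (limma adjusted p = 0.0754), and its local background was marked as a population outlier on 3 arrays. The call for OAS1 depended on which horses were used: the limma adjusted p was 0.114 without horse 1, 0.118 without horse 2 and 0.121 without horse 4, but 0.037 without horse 3. With each array centred on its median in place of loess the log2 ratio was 0.69 (adjusted p = 0.16), and without the filter on dim probes the adjusted p was 0.0636.

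EIF2AK2 encodes PKR, the kinase that is activated by double-stranded RNA and stops translation by phosphorylating the initiation factor eIF2. Its 3 probes all belong to NM_001143800. On the brightest, A_69_P059921, the log2 ratio was 0.86, 0.37, 0.99 and 0.50 in horses 1 to 4. The normalized log2 level was 8.60, 8.31, 8.59 and 8.13 in the sarcoids and 7.74, 7.94, 7.60 and 7.63 in the skin. The tissues did not overlap, and here horse 3 had the largest ratio of the 4 animals, unlike in OAS1. EIF2AK2 rose by 0.68 ± 0.29 (SD, n = 4; limma 95% interval 0.30 to 1.06, adjusted p = 0.038).

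The other EIF2AK2 probes, A_69_P005486 and A_69_P059922, had mean log2 ratios of 0.64 ± 0.42 and 0.49 ± 0.20 and did not pass over all probes (limma adjusted p = 0.0748 and 0.0598). Horse 3 had the largest ratio on all 3 probes. These probes were dim, with net signals (spot minus local background) from 74.5 to 389 in the sarcoid channel, and the background step with its offset of 50 raised net signals by a median of 9.59 to 15.4 units in the sarcoid channel and 48.1 to 55.9 in the skin channel before the ratio was formed. In Agilent's processed signals, to which no offset was added here, the 3 probes were at 1.14 ± 0.37, 1.27 ± 0.73 and 1.18 ± 0.25. The call did not hold with any horse left out (limma adjusted p = 0.143, 0.0702, 0.105 and 0.0766 without horses 1 to 4), and the log2 ratio was 0.52 on median centring (adjusted p = 0.172). As the mean of all 3 probes it was 0.60 (adjusted p = 0.054), and with an intensity trend in the model the adjusted p was 0.0505.

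SAMD9 encodes a cytoplasmic protein that restricts poxviruses and, like PKR, acts on translation. It has 3 probes, 1 of them designed on a predicted transcript (XM_005609173) and 2 on the curated one (NM_001256925). On the brightest, A_69_P107336 of the predicted transcript, the log2 ratio was 1.49, 0.89, 1.01 and 1.47 in horses 1 to 4. The normalized log2 level was 8.91, 8.72, 9.04 and 9.45 in the sarcoids and 7.43, 7.83, 8.03 and 7.98 in the skin. Every sarcoid was above every skin sample. SAMD9 rose by 1.21 ± 0.31 (SD, n = 4; limma 95% interval 0.82 to 1.60, adjusted p = 0.00771), and it alone of the 5 genes still passed whichever horse was left out (highest adjusted p 0.0393).

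The 2 probes of the curated transcript gave smaller values. A_69_P078661 was at 0.37 ± 0.24 and A_69_P078662 at 0.60 ± 0.35, and neither passed over all probes (limma adjusted p = 0.134 and 0.0653). Both were dim, with net skin signals of 75.5 to 141.5 and 30 to 75, against 105 to 322 on the brightest probe. The background step raised skin signals by a median of 48.1 to 55.9 units. The gap was widest in horse 4, where they stood at 0.18 and 0.17 against 1.47 on the brightest probe. In Agilent's processed signals the 3 probes were at 1.74 ± 0.42, 0.81 ± 0.35 and 1.58 ± 0.68, and horse 4 at 2.06, 0.47 and 0.86. In horse 4 the probes thus disagreed in both sets of signals. As the mean of all 3 probes the log2 ratio of SAMD9 was 0.73 and still passed (limma adjusted p = 0.0229).

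MX1 encodes a dynamin-like GTPase that assembles around viral nucleocapsids and is among the genes most sensitive to type I and III interferon. Both of its probes belong to NM_001082492. On the brighter, A_69_P000142, the log2 ratio was 1.00, 0.27, -1.97 and 1.74 in horses 1 to 4. On A_69_P000141 it was 0.87, 0.27, -1.66 and 1.91, so the probes gave the same order and signs. MX1 thus went from a 3.34-fold higher level in the sarcoid of horse 4 to a 3.93-fold lower one in that of horse 3. Among all targets of the array, its ratio lay at percentile 98.4 in horse 4 and at percentile 4.67 in horse 3.

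The normalized log2 level of MX1 in the sarcoids was 9.84, 9.77, 7.80 and 11.79 in horses 1 to 4, and in the skin 8.83, 9.50, 9.78 and 10.05. The low ratio of horse 3 came with the lowest of the 4 sarcoid levels, while its skin level lay inside the range of the other skin samples. The sarcoid levels had an SD of 1.63 and the skin levels one of 0.52. The mean log2 ratio was 0.26 ± 1.61 (SD, n = 4; limma 95% interval -1.27 to 1.79, adjusted p = 0.815), so neither a 2-fold rise nor a 2-fold fall lies outside the interval. Its SD over horses stood at percentile 98.6 of all targets, whose median SD was 0.34. Without horse 3 the log2 ratio of MX1 was 1.00 (limma adjusted p = 0.134), without horse 1 it was 0.011, and without horse 4 it was -0.23 (adjusted p = 0.839). It was 0.64 with the background fitted on all spots and 0.032 on median centring.

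**Figure D2:**
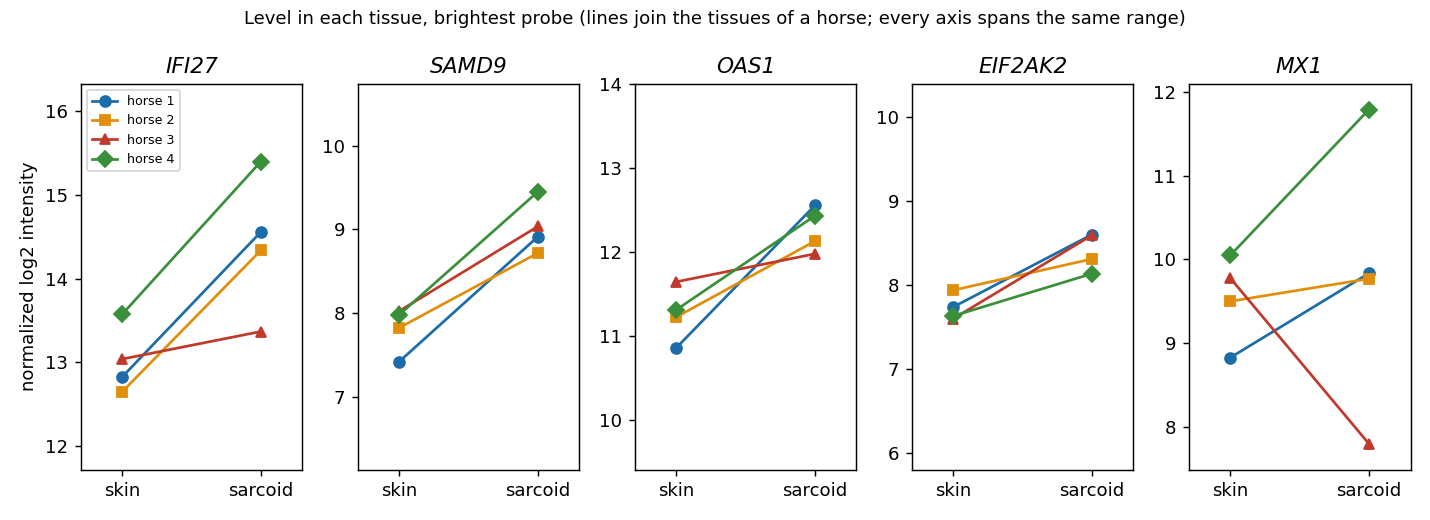
Normalized log2 intensity (vertical axis) in skin and sarcoid for the brightest probe of each gene; a line joins the tissues of 1 horse, and every panel spans the same range. Lines rise for IFI27, SAMD9, OAS1 and EIF2AK2 in all 4 horses, while the MX1 line of horse 3 falls from 9.78 to 7.80.

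IFI27 has a single probe, A_69_P001486 of NM_001114146. The log2 ratio was 1.73, 1.68, 0.33 and 1.82 in horses 1 to 4. The normalized log2 level was 14.56, 14.34, 13.37 and 15.39 in the sarcoids and 12.83, 12.65, 13.04 and 13.57 in the skin. The ratio was nearly the same in 3 animals and much lower in horse 3, whose sarcoid was the only one not above all skin samples. IFI27 rose by 1.39 ± 0.71 (SD, n = 4; limma 95% interval 0.68 to 2.10, adjusted p = 0.0311). The local background of its spot was marked as a population outlier on 3 of 4 arrays, beside net sarcoid signals from 8418 to 31481, and with these spots left out no value could be had.

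Without horse 3 the log2 ratio of IFI27 was 1.74 (limma adjusted p = 0.00691), and without horses 1, 2 and 4 in turn the adjusted p was 0.121, 0.107 and 0.0997. On median centring the log2 ratio was 0.93 (adjusted p = 0.0903). Without the filter on dim probes the adjusted p was 0.0502, and with the channels modelled as 8 unpaired samples it was 0.0578.

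On the brightest probes of OAS1, EIF2AK2 and SAMD9 all 4 sarcoid levels were above all 4 skin levels, a pattern that 8.12% of 19574 targets showed. For IFI27 this held for 3 sarcoids and for MX1 for 1. The other OAS1 and EIF2AK2 probes showed the pattern too. On both dimmer SAMD9 probes it held for only 3 sarcoids, so the tissues overlapped there. The ratio was above 0 in all 4 horses for 17.8% of targets and for 4 of the 5 genes. When the background model was fitted on all spots, outlier spots included, 0.474% of targets were called higher and none of the 5 genes was. That fit met 5 sarcoid-channel spots of horse 2 and 9 of horse 3 whose net signal was below -1000 (lowest -97299), and it raised net signals on these arrays by a median of 335 to 1543 units, against 14.2 to 51.5 on that of horse 1 and 15.6 to 48.1 on that of horse 4. The log2 ratios (limma adjusted p) were then 1.40 for IFI27 (0.12), 0.85 for SAMD9 (0.266), 0.98 for OAS1 (0.162) and 0.39 for EIF2AK2 (0.309). Of all calls in the series 37.1% were on the higher side, against 48.2% with Agilent's processed signals and 18.7% on median centring.

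**Figure D3:**
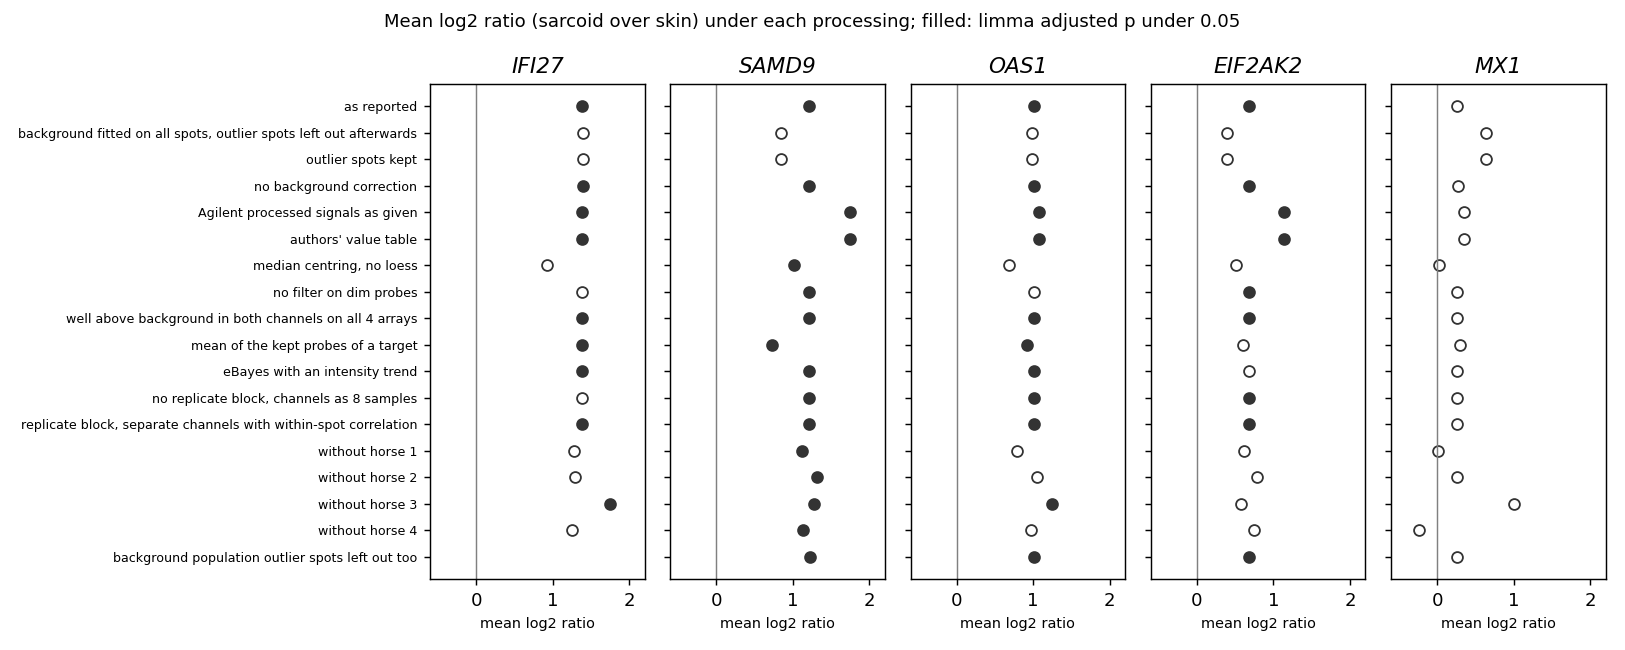
Mean log2 ratio of sarcoid over skin (horizontal axis) of each gene under the reported processing and each alternative (vertical axis); filled points have a limma adjusted p under 0.05. IFI27, SAMD9, OAS1 and EIF2AK2 stay above 0 throughout, SAMD9 is filled in 15 of 17 alternatives, and MX1 is never filled and lies at -0.23 without horse 4.

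The horses thus ordered the genes in more than one way. Horse 3 had the lowest ratio of the 4 animals for OAS1, MX1 and IFI27, but the highest for EIF2AK2, while for SAMD9 and EIF2AK2 the lowest was in horse 2 on the brightest probe and in horse 4 on each of the other probes. Among the 16 other interferon pathway genes that were measured, the ratio was lowest in horse 3 for 12, against 29.0% of all 19574 targets. Their median log2 ratio was 0.70, 0.23, 0.0074 and 0.68 in horses 1 to 4, and the median over all targets lay between -0.05 and 0.01 in each horse.

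Several markers of leukocytes and vessels were also lowest in horse 3. Of 8 measured leukocyte markers (IFNG among them) 6 had their lowest ratio in horse 3, and of 4 endothelial markers 3. CD14, of monocytes and macrophages, had log2 ratios of 2.17, 1.70, -0.40 and 1.11 in horses 1 to 4. CSF1R, a receptor of the same cells, was at 0.92 in horse 3 and lowest in horse 4, at 0.90. PECAM1, an adhesion protein of endothelium, had 0.42, 2.29, -1.84 and 0.77, and VWF, the von Willebrand factor of the same cells, had 0.03, 1.59, -1.95 and 0.10. VCAM1 was also lowest in horse 3, but above 0, at 1.84. SELE was at -0.21 in horse 3 and lowest in horse 1, at -0.61. Of the measured endothelial markers, only VCAM1 was thus above 0 in horse 3.

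As lists, 4 of 12 macrophage and dendritic cell markers were measured and 1 was called higher (CSF1R), with a summed normalized intensity of 7406 to 22005 in the sarcoids and 3810.4 to 9076 in the skin. Of 13 T and NK cell markers 4 were measured and none was called, with sums of 739 to 9280.1 in the sarcoids and 1542 to 2619 in the skin. GZMB, which is also in the plasmacytoid dendritic cell list, alone gave 435 to 8777 in the sarcoids and 1280 to 2132 in the skin. The range of these sums is thus largely that of 1 gene. Of 7 endothelial markers 4 were measured and 1 was called higher (VCAM1), with sums of 5869.6 to 30879.6 and 3185 to 7849.6. The plasmacytoid dendritic cell list, from cells that are rich sources of interferon, had 1 measured member of 6, GZMB at -0.31 ± 2.17, and no B cell or neutrophil marker was measured. In the fibroblast list all 8 measured members of 13 were called higher, and the only measured keratinocyte marker of 12, KRT15, was called lower. Of 7 skin gland markers 5 were measured and 4 were called lower. Over all targets 5.84% were called higher and 9.9% lower. The lists were chosen with earlier results of these data known, so their counts are not a test. The part of these cells in the interferon-induced genes was not tested.

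**Figure D4:**
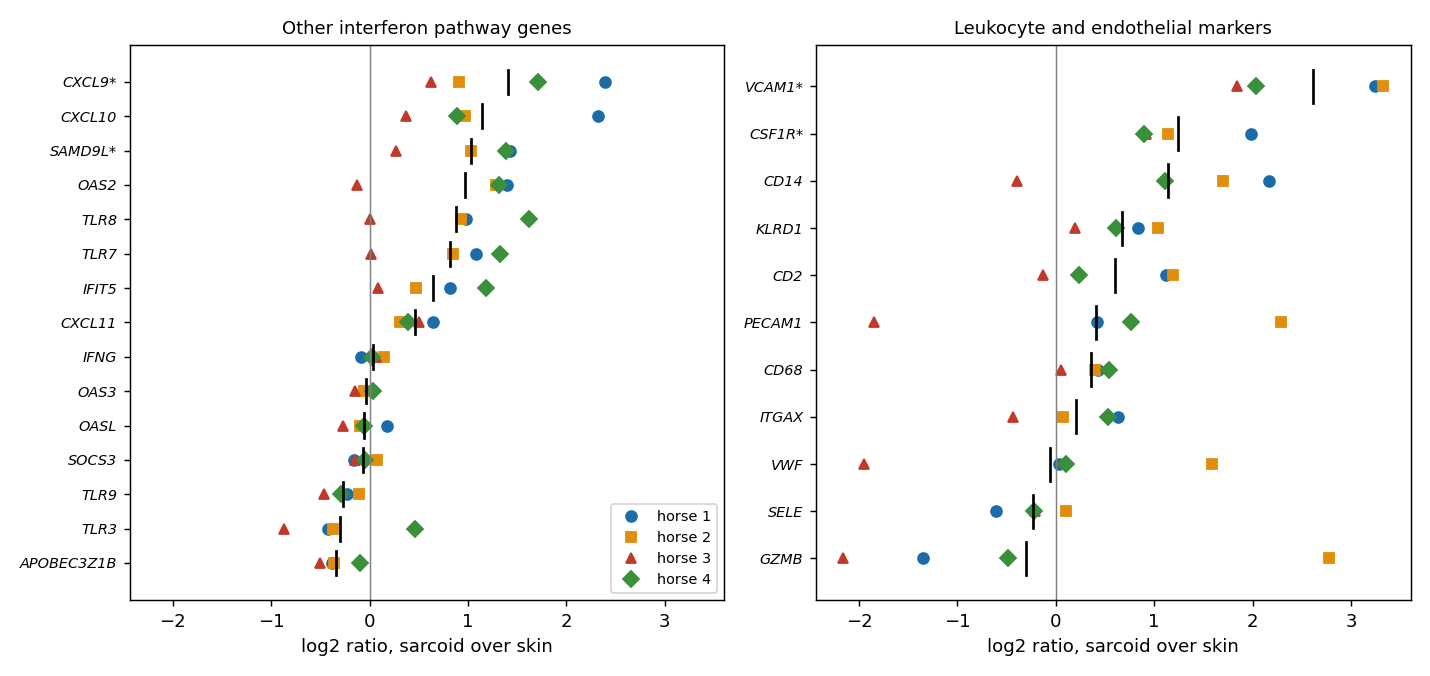
Log2 ratio of sarcoid over skin (horizontal axis) for the measured ligand, receptor, sensor and effector genes of the interferon pathway (left) and 11 leukocyte and endothelial markers (right), with 1 point per horse and a bar at the mean; an asterisk marks a limma adjusted p under 0.05. Horse 3 is the lowest point for 12 of the genes on the left. On the right it lies at -1.84 for PECAM1, -1.95 for VWF and -0.21 for SELE, but at 1.84 for VCAM1.

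The wider pathway was sparsely covered, since most probes carry Ensembl transcripts without a gene name here: of 141 list entries 16 were measured, of which 2 were called higher and 0 lower (limma adjusted p under 0.05), beside 5.84% and 9.9% of all targets. With no test of the list, 10 of the 16 were above 0 and their median log2 ratio was 0.55, beside 0.0035 over all targets. Probes of the ligands IFNA1 and IFNB1 did not pass the filter on dim probes. Among the listed ligands only IFNG could be read, at 0.04 ± 0.10. Its probe was well above background in 2 of the 4 sarcoids and in 3 skin samples. It thus met the filter on dim probes through the skin channel alone. With signals this near background, a ratio near 0 does not show that the ligand was unchanged. Among receptors and their signalling chain only SOCS3, a feedback inhibitor of cytokine receptors, was measured, at -0.07 ± 0.11. The ligand IFNG was at -0.012 with the background fitted on all spots and at -0.0042 without background correction, and SOCS3 at 0.0093 on median centring.

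Of 4 sensors of nucleic acid none passed. The endosomal receptors for single-stranded RNA, TLR7 and TLR8, were at 0.82 ± 0.57 and 0.88 ± 0.67 (limma adjusted p = 0.0786 and 0.0885). Both were near 0 in horse 3, at 0.013 and 0.0023, and without that horse they stood at 1.09 and 1.18 and passed (adjusted p = 0.0282 and 0.0379). Neither passed without horse 1 (limma adjusted p = 0.238 and 0.24), horse 2 (0.199 and 0.216) or horse 4 (0.186 and 0.186). TLR7 passed in 5 of 16 alternatives and TLR8 in 3 of 17. With Agilent's processed signals they were at 1.95 and 1.39 and passed (adjusted p = 0.0261 and 0.0336). TLR3, which binds double-stranded RNA, was at -0.30 ± 0.56, and TLR9, which binds DNA, at -0.27 ± 0.15.

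Of 9 other interferon-induced effectors 2 were called higher and 7 did not pass. SAMD9L, the neighbour and paralog of SAMD9, rose by 1.03 ± 0.54 (SD, n = 4; limma adjusted p = 0.0376), with 1.43, 1.04, 0.27 and 1.39 in horses 1 to 4. It followed the horse pattern of IFI27 rather than that of SAMD9, whose ratio in horse 3 was 1.01. The T cell chemokine CXCL9 rose by 1.41 ± 0.80 (limma adjusted p = 0.0403), and CXCL10 and CXCL11 were at 1.14 ± 0.83 and 0.46 ± 0.14 (adjusted p = 0.0771 and 0.0548). The CXCL11 probe was well above background in 4 sarcoids but in 1 skin sample, so its ratio is set against a skin signal near background. This probe met the filter on dim probes through the sarcoid channel alone. Where CXCL11 passes below, a higher value in the sarcoid was thus partly built in. The calls of SAMD9L and CXCL9 did not hold without horse 1 (adjusted p = 0.137 and 0.0918), horse 2 (0.117 and 0.078) or horse 4 (0.112 and 0.121), and that of CXCL9 not without horse 3 (0.0502). The 2 probes of CXCL9 differed, with means of 1.41 and 0.64, and in Agilent's processed signals CXCL9 was at 3.08, SAMD9L at 1.55, CXCL10 at 2.72 and CXCL11 at 1.98, and all 4 passed (adjusted p = 0.00487, 0.016, 0.0185 and 0.00315). The CXCL9 call was also lost under the replicate block with separate channels (limma adjusted p = 0.0529) and without background correction (0.0525). Calls of CXCL9 and SAMD9L were both lost without the filter on dim probes (0.0641 and 0.0555) and with no replicate block (0.148 and 0.11). With the background fitted on all spots neither passed (0.334 and 0.286), nor did SAMD9L on median centring (0.0658). CXCL9 passed in 6 of 16 alternatives and SAMD9L in 9 of 17.

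The OAS family did not move as 1 block. OAS2 was at 0.97 ± 0.73 (limma adjusted p = 0.0861), with 1.39, 1.28, -0.13 and 1.32 in horses 1 to 4, and passed without horse 3 at 1.33 (adjusted p = 0.0116). It did not pass without horse 1, 2 or 4 (limma adjusted p = 0.256, 0.232 and 0.209), and passed in 3 of 17 alternatives. OAS3, another synthetase, was at -0.04 ± 0.09, and OASL, a relative that makes no oligoadenylate, at -0.06 ± 0.19. OAS3 was at 0.16 with Agilent's processed signals and OASL at 0.012 without horse 3, so neither value has a settled sign. IFIT5, which binds viral RNA ends, was at 0.64 ± 0.47 (limma adjusted p = 0.096), and the cytidine deaminase APOBEC3Z1B was at -0.34 ± 0.17 (adjusted p = 0.13), its probe being well above background in 0 of the 4 sarcoids. With Agilent's processed signals it was at -2.08 and passed (limma adjusted p = 0.0473), as it did with an intensity trend (0.0288) and under the replicate block (0.045). The APOBEC3Z1B probe met the filter on dim probes through the skin channel alone, on 3 arrays. A lower value in the sarcoid was thus partly built in, and these passes are not evidence of a fall.

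The genes whose 8 normalized channel levels (4 sarcoids, 4 skin samples) ran most like each of the 5 were sought among 786 genes with a symbol, by Pearson's correlation. For IFI27 they were TLR7 (r = 0.984), SAMD9L (0.968) and TNFSF13B, a B cell survival cytokine (0.966). For OAS1 they included VIM (0.944) and LRRN2 (0.943). For SAMD9 they were COL14A1, LRRN2 and SELENOM (0.974, 0.964 and 0.961), and for EIF2AK2 SERPINF1, FAM168B and CALU (0.964, 0.957 and 0.945). MX1 stood with RNASE4, a secreted ribonuclease (0.924), IFND2, an interferon gene outside the ligand list with a log2 ratio of 0.01 ± 0.23 (0.898), and SELENOK (0.894).

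These values share arrays, and where tissues differ they are largely set by that difference, so they describe the pattern only. RNASE4 had the highest r with MX1 among 786 genes, over the same levels that form the ratios. That its ratios of 0.96, 0.26, -0.74 and 1.98 in horses 1 to 4 ran like those of MX1 was thus built in by the search. Among the 5 genes themselves, the highest r over these 8 levels was 0.932, between SAMD9 and OAS1, and the lowest was -0.20, between EIF2AK2 and MX1. IFI27 and MX1 had 0.688.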

How the data were processed

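Total RNA of 4 sarcoids and of skin of the same 4 horses was amplified from 100 ng and labelled with a low-input two-colour kit, per the labels. The deposited scanner files give median spot and background intensity per channel, processed signals that are background-subtracted and dye-normalized, and a log10 ratio of Cy5 over Cy3; Agilent Feature Extraction 11.5.1.1 made them, per the submitters' processing notes. The value table of the authors holds the same log10 ratio (largest difference 0; medians 0, -0.0026, -0.012 and 0 for horses 1 to 4). Flags of the deposited files are other values, 0 or 1 per spot.

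Outlier spots by 3 of the scanner's flags (uneven feature, feature far from its replicates, uneven local background) were dropped from either channel first. Median signals then went through normexp with an offset of 50 and through loess, to which control spots gave no weight (limma 3.58.1, R 4.3.3). Ratios were turned to sarcoid over skin. A probe was kept if at least 3 of the 4 arrays showed it well above background in 1 of the channels, and a target's brightest probe was tested with lmFit and eBayes (two-sided, Benjamini-Hochberg, threshold 0.05). Each ratio already pairs the tissues of a horse. Channel levels were scaled between arrays with Aquantile. Names came from a RefSeq gene table of the horse, which matched 2332 of 3437 RefSeq probes, without versions; no coordinates are given, since the array was designed on another build. The members and lists were chosen with earlier results of these data known. Named were all members and probes, all measured genes of pathway lists with at most 6, up to 6 passing genes of longer ones, and the 3 genes most alike (1 pathway gene that enters the counts and 1 alike gene are not reported here); the effectors that did not pass and the cell type markers were named after their values were seen. Alternatives covered the outlier spots, background, normalization, filter, probe choice, model and each horse left out. Promoter motifs and protein lengths, which were also planned, were not computed, since no sequence tables were used here. The test was run on simulated data of independent normal values. These hold no dye, array or background effect, so that run does not bear on the processing.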

Additional observations from a re-analysis of the deposited data

Results flagged for a closer look

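In 31 sets of 4 horses (log2 ratios and channel levels of the 5 genes, and log2 ratios of the 16 pathway genes), 2 held an animal far from the other 3 by Dixon's criterion at 95%, and chance alone marks about 1 in 20. The log2 ratio of IFI27 was 0.33 in horse 3, against 1.68 to 1.82 in the others. That of OAS2 was -0.13 in horse 3, against 1.28 to 1.39. The MX1 ratio of -1.97 in the same animal did not meet the criterion, since the other 3 horses were themselves spread from 0.27 to 1.74.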

How the results depend on the processing

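SAMD9 passed in 15 of 17 alternatives, OAS1 in 10 of 17, IFI27 in 8 of 16 and EIF2AK2 in 8 of 17, all with a log2 ratio above 0 in each; MX1 passed in 0 of 17, with adjusted p from 0.134 to 0.995. Some alternatives are not separate for these genes. Agilent's processed signals and the value table gave the same log2 ratios, and so did the background fitted on all spots and outlier spots kept. With the background fitted on all spots, or outlier spots kept, log2 ratios were 1.40 for IFI27, 0.85 for SAMD9, 0.98 for OAS1 and 0.39 for EIF2AK2, and none passed. Those that also no longer passed were IFI27 (0.93), OAS1 (0.69) and EIF2AK2 (0.52) on median centring; IFI27 (1.39) and OAS1 (1.01) without the filter on dim probes, where 25215 targets are tested; EIF2AK2 as the mean of its probes (0.60) or with an intensity trend (0.68); and IFI27 (1.39) with no replicate block. The replicate block with separate channels kept the call of IFI27, SAMD9, OAS1 and EIF2AK2. With 1 horse left out the log2 ratio ranged from 1.25 to 1.74 for IFI27, 1.12 to 1.32 for SAMD9, 0.79 to 1.24 for OAS1, 0.58 to 0.79 for EIF2AK2 and -0.23 to 1.00 for MX1. Fits without a horse have fewer samples. Where outlier spots entered the background fit, they raised net signals on the arrays of horses 2 and 3 by a median of 335 to 1543 units; the cause of the lost calls was not tested.

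Targets called higher (1146) became 93 with the background fitted on all spots, 94 with outliers kept, 1887 with Agilent's processed signals, 1883 with the authors' value table, 614 on median centring and 389 to 821 with 1 horse left out. Targets called lower (1941) became 147 with the background fitted on all spots, 147 with outliers kept and 1071 to 1412 with 1 horse left out. Of the pathway genes, the 2 called higher (SAMD9L and CXCL9) became 0 with the background on all spots, outliers kept or no replicate block. They became 1, SAMD9L, without background correction or with the stricter filter, which CXCL9 did not meet. Without the filter both calls were lost, and the 1 call was of CXCL11. The count was 8 with processed signals or the value table, 5 with the trend and 0 to 4 with 1 horse left out. These counts are not always of the same genes. The 0 called lower became 1, APOBEC3Z1B, with processed signals, the value table, the trend or the replicate block. Signs of values near 0 turned for IFNG (-0.012, -0.012 and -0.0042), SOCS3 (0.0093), OAS3 (0.011, 0.011, 0.16 and 0.16, and -0.062 to 0.00070 with 1 horse left out) and OASL (-0.14 to 0.012). Leaving out spots with a background population flag was an alternative chosen after seeing the data.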

Other observations

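Values chosen after they were seen: in horse 3, where OAS1, MX1 and IFI27 had their lowest log2 ratios, TLR3 had a ratio of -0.87 and IFIT5 one of 0.09, while EIF2AK2 had its highest, at 0.99.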
